A study of Mus musculus with 8 samples.

Results

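The mitochondrial genome is a small circular chromosome kept in many copies per cell. It encodes core subunits of the respiratory chain and of ATP synthase, together with the ribosomal and transfer RNAs that translate them inside the organelle. All 37 genes that the count tables place on chromosome MT, of 52636 genes in all, were described here: 13 protein genes, 2 rRNA genes and 22 tRNA genes. They were taken by their chromosome, not by their levels.

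RNA-seq was measured in 8 mouse samples of malignant mesothelioma, a cancer that arises in the lining around lung, heart and gut, from conditional mouse models of the pleural disease. In 6 triple knockout samples Nf2, Cdkn2a and Bap1 were inactivated, and in 2 double knockout samples Nf2 and Cdkn2a were, so the loss of Nf2 and Cdkn2a is common to both groups. Merlin, the product of Nf2, acts in Hippo signalling, Cdkn2a products restrain the cell cycle, and the Bap1 protein removes ubiquitin from histone H2A. The comparison asks what differs where Bap1 is lost as well. The labels give neither the Cre driver, the strain nor the age of the mice, nor the number of animals or cultures behind the samples. P-values therefore rest on the spread between these samples, which may be technical. The protocols speak of cells in culture medium and of enrichment of messenger RNA.

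Total counts ran from 28326756 to 30232440 in the triple samples and were 32082535 and 26847202 in double samples 1 and 2. Double sample 1 stood apart from the rest, with a scaling factor (TMM) of 0.771, against 0.994 to 1.10 in the triple samples and 1.03 in double sample 2. Bap1 stood at 43.1 to 72.0 CPM (counts scaled to a common library size, with TMM factors) in the triple samples, against 105 and 71.1 CPM in the double samples (adjusted p = 0.122 by edgeR's quasi-likelihood test), and its count may take in exons that were not deleted. Nf2 stood at 62.6 to 100 CPM in the triple samples, against 165 and 109 CPM in the double samples. Cdkn2a stood at 4.05 to 8.76 CPM in the triple samples, against 1.54 and 5.16 CPM in the double samples. Nf2 and Cdkn2a, inactivated in both groups, had adjusted p = 0.103 and 0.306 by edgeR. Of 10 mesothelial markers 8 were tested and 0 called, 3 had a negative log2 fold change, and the median was 1.31 (2.57 without double sample 1). Their sum, per total counts without TMM factors, was 133 to 997 CPM in the triple samples. In double samples 1 and 2 the sum was 266 and 1474 CPM. Msln (mesothelin) stood at 12.6 to 194 CPM in the triple samples and at 251 and 342 CPM in the double samples. Wt1, a transcription factor that marks mesothelium, stood at 33.2 CPM in triple sample 3 and at 0.317 to 1.76 CPM in the other triple samples, against 0 and 0.0361 CPM in the double samples. Calb2 (calretinin) was at 0 in 7 of the 8 samples.

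Mammalian mitochondrial DNA is transcribed from both strands into long precursors that run through many genes. The precursors are cut mainly at the tRNAs, which lie like punctuation between the other genes, so levels of single mature RNAs depend on processing and stability as well as on transcription. Most mitochondrial mRNAs carry short poly(A) tails, while tRNAs do not. In the annotation 12 of the 13 protein genes lie on the plus strand, and mt-Nd6 and 8 tRNA genes lie on the minus strand. Neighbouring genes lie close together, and some overlap, by 1 to 43 bases.

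Pieces of the mitochondrial genome have also been copied into the nuclear chromosomes, and these copies share sequence with the genes themselves. One run of annotated copies was a block of 7 unprocessed pseudogenes on chr1:24611535-24616197 (GRCm38, minus strand, 4663 bases), which holds copies of the end of mt-Co1, the first part of mt-Nd4 and nearly all of mt-Co2, mt-Atp6, mt-Co3, mt-Nd3 and mt-Nd4l. Over 4149 aligned bases the transcripts of these pairs differed at 7 positions. Of these, 6 lay at the start of the copied stretch of mt-Co1 (T1056A, C1057T, A1059G, A1060G, C1062A and A1066T, with the mitochondrial base first and positions counted from 1 at the 5′ end of mt-Co1), and 1 lay in mt-Nd3 (T3C, counted likewise). The first 60 bases of the copied stretch are shown for 3 pairs. Reads that lie within such a stretch can be told apart only at bases that differ. The sequences are GENCODE M21 transcripts, and capitals mark the bases that differ within a pair. The stretches of mt-Co1 (chrM:6381-6440) and Gm29216 (chr1:24616138-24616197, minus strand) were:
mt-Co1: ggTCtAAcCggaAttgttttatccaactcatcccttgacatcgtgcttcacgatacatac
Gm29216: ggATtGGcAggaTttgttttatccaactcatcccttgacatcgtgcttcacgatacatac
Those of mt-Nd3 (chrM:9459-9518) and Gm28438 (chr1:24613060-24613119, minus strand) were:
mt-Nd3: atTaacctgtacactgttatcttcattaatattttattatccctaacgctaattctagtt
Gm28438: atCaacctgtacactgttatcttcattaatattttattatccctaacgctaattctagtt
Those of mt-Atp6 (chrM:7927-7986) and Gm10925 (chr1:24614592-24614651, minus strand) hold no capital, since no base differed:
mt-Atp6: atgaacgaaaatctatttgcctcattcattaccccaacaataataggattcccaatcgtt
Gm10925: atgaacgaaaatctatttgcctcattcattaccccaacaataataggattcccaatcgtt

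The counts of 5 of these 7 pairs stood mainly on the nuclear copy. Over all 8 samples mt-Atp6, a membrane subunit of ATP synthase, had 1120 counts and its copy Gm10925 had 76246, which is 68.1 times as many. For mt-Co3, a core subunit of cytochrome c oxidase (complex IV), the gene had 1703 counts and Gm28437 had 88459. For mt-Co2, another core subunit of complex IV, the gene had 2199 counts and Gm28661 had 59902. The complex I subunit mt-Nd3 had 126 counts, against 6418 on Gm28438. The complex I subunit mt-Nd4l had 71 counts, against 4781 on Gm10222.

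The other pairs, in which the copy covers part of the gene, had most of their counts on the mitochondrial gene. The catalytic complex IV subunit mt-Co1 had 1419678 counts and Gm29216 had 60202. The complex I subunit mt-Nd4 had 302742 counts and Gm28439 had 25933. A second, shorter run of copies on chromosome 2 included Gm13340, which shares sequence with mt-Co1 and had 37657 counts. How reads that match several places were assigned is not given in the sources used here, so the counts of genes with a copy are uncertain, and reads of a gene and of an identical copy cannot be told apart.

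Cutting each gene into windows of 50 bases shows how much of it is shared. The share of windows found unchanged in a nuclear transcript of the annotation was 100% for mt-Co2, 99.9% for mt-Co3, 99.5% for mt-Atp6, 98.8% for mt-Nd4l and 98.0% for mt-Nd3. It was 62.2% for mt-Nd4, 51.1% for mt-Co1, 8.19% for mt-Nd2, 7.61% for mt-Nd5 and 1.04% for mt-Rnr2. No window was shared for mt-Rnr1, mt-Nd1, mt-Nd6, mt-Cytb or mt-Atp8. In all, 14 nuclear genes of the tables shared at least 1 window.

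**Figure D1:**
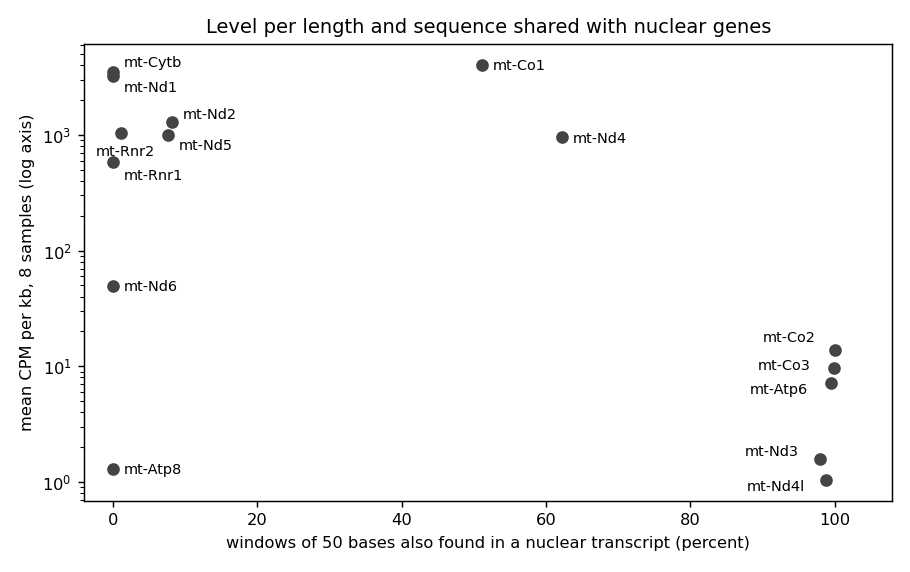
Mean level per kilobase over the 8 samples (CPM per kb, log axis) of the 15 protein and rRNA genes, against the percent of their 50-base windows that also occur in a nuclear transcript. The 5 genes with at least 98.0% shared windows lie at 1.04 to 13.9 CPM per kb, while mt-Co1 and mt-Nd4, which are partly shared, lie at 4051 and 955 CPM per kb.

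Genes with at least 98.0% shared windows were all low per length, and mt-Nd6 and mt-Atp8 were low without sharing a window. Highest in mean CPM per kb over the 8 samples was mt-Co1 at 4051, then mt-Cytb, the cytochrome b subunit of complex III, at 3492 and the complex I subunit mt-Nd1 at 3259. Next came mt-Nd2 at 1286, mt-Rnr2 (large ribosomal RNA) at 1044, mt-Nd5 at 992, mt-Nd4 at 955 and mt-Rnr1 (small ribosomal RNA) at 585 CPM per kb. The ranges over samples of neighbours among these 8 genes overlapped. Far below were mt-Nd6 at 49.4, mt-Co2 at 13.9, mt-Co3 at 9.59, mt-Atp6 at 7.16 and mt-Nd3 at 1.56 CPM per kb. At the bottom, mt-Atp8 stood at 1.29 and mt-Nd4l at 1.04 CPM per kb.

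The ATP synthase subunit gene mt-Atp8 had 60 counts over all samples although no 50-base window of it was found in an annotated nuclear transcript. It lies between mt-Co2 and mt-Atp6, which are 230 bases apart, and it overlaps mt-Atp6 by 43 bases. On chromosome 1 the copies of these neighbours are 233 bases apart, with no annotated transcript between them. The genome sequence of that gap was not used here, so whether it holds a copy of mt-Atp8 was not tested.

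Per 1000 unshared windows, mt-Co1 stood at 8561 CPM, mt-Cytb at 3648, mt-Nd1 at 3435 and mt-Nd4 at 2620. This measure takes it that no read from a shared window was counted on the mitochondrial gene. That need not hold for mt-Co1 and mt-Nd4, since mt-Co2 and mt-Co3 had counts with 0 and 1 unshared windows. The 6 protein genes with at least 100000 counts (mt-Nd1, mt-Nd2, mt-Co1, mt-Nd4, mt-Nd5 and mt-Cytb) held 99.7% of the counts on mitochondrial protein genes. The share of a gene in that total is therefore, for the genes with a near-complete copy, a statement about where reads were assigned as well as about RNA.

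**Figure D2:**
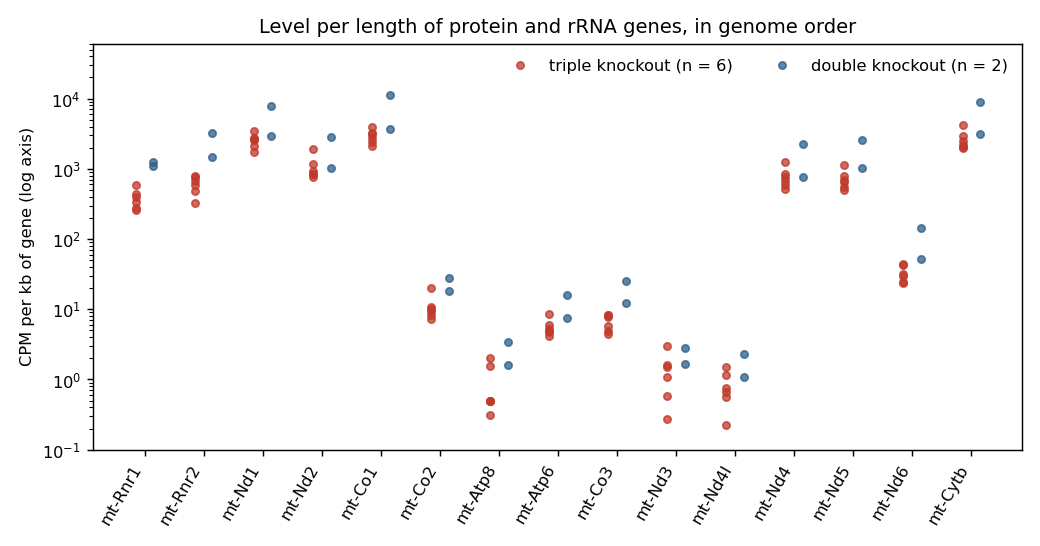
Level per kilobase (CPM per kb, log axis) of each protein and rRNA gene in every sample, in genome order, with triple knockout samples (n = 6) left and double knockout samples (n = 2) right. The run from mt-Co2 to mt-Nd4l lies orders of magnitude below its neighbours in all 8 samples, and the higher of the double samples is sample 1 for every gene.

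Genes of the mitochondrial genome took 1.21, 2.33, 1.77, 1.32, 1.16 and 1.49% of all counts in triple samples 1 to 6, and 4.04 and 2.01% in double samples 1 and 2. Double sample 1 was the highest of all, while double sample 2 lay inside the range of the triple samples, so the groups overlapped. The mean was 1.55 ± 0.44% (SD, n = 6) in the triple samples and 3.02 ± 1.44% (SD, n = 2) in the double samples. The 95% Wilson interval was at most 2.33 to 2.34% in a triple sample and 4.03 to 4.05% in double sample 1, so counting error is small beside the spread between samples. With the counts of the chromosome 1 copies added, the means were 1.66 ± 0.48% in the triple samples and 3.21 ± 1.52% in the double samples (SD).

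**Figure D3:**
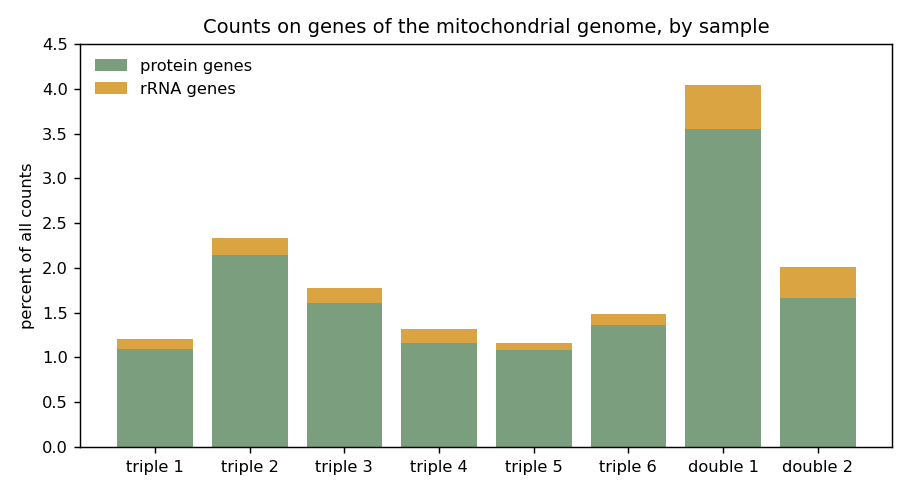
Percent of all counts on protein and rRNA genes of the mitochondrial genome in each sample, with the tRNA genes, at 0.00104% or less, not drawn. Double sample 1 reaches 4.04%, double sample 2 lies at 2.01%, and the triple samples lie between 1.16 and 2.33%.

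Against the double samples, no mitochondrial gene rose in the triple samples and 4 fell: both rRNA genes, mt-Nd6 and mt-Co3. These were 4 of the 17 mitochondrial genes that passed the filter on low counts, where 5.41% of all 17709 genes tested were called lower and 2.94% higher (edgeR's quasi-likelihood test, adjusted p under 0.05 by Benjamini-Hochberg over all genes tested). The 17 genes were the 13 protein genes, the 2 rRNA genes, mt-Ti and mt-Tw. Genes cut from common precursors are not independent of each other. All 13 protein genes had a negative log2 fold change, from -0.72 for mt-Nd3 to -1.58 for mt-Nd6, where 49.1% of all genes tested did, and all 13 kept that sign under TMM, RLE, upper-quartile and library-size scaling. The median over the 17 genes was -1.20, against 0.02 over all genes tested. Of the 15 protein and rRNA genes, 4 had scaled CPM that did not overlap between the groups, all lower in the triple samples, where 11.4% of all genes tested were apart in that direction. Scaling by library size alone moved these medians to -0.88 and 0.21.

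All 4 calls were lost without double sample 1, in a fit that leaves a lone double sample, assumed to vary like the triple samples, and that called 1.14% of all genes lower. There 0 mitochondrial genes were called by edgeR, 3 had an unadjusted p under 0.05, and 2 of the 13 protein genes no longer had a negative log2 fold change. The size of the difference moved little for mt-Rnr1, at -1.52 without that sample and -1.62 with all samples on the log2 scale. It shrank more for mt-Rnr2 (-1.27 without it, -1.97 with all), mt-Co3 (-0.91 and -1.52) and mt-Nd6 (-0.65 and -1.58). Without any 1 of the triple samples the count was 2, the rRNA genes, except without triple sample 2, where it was 4 with mt-Co2 in place of mt-Co3 (2.38 to 3.45% of all genes lower). Without double sample 2, with the same assumption of a lone sample, the median log2 fold change of the mitochondrial genes tested was -1.79. That fit tested 22 of them, since its filter let in genes counted mainly in double sample 1, such as mt-Tq, mt-Tt and mt-Tp. The description codes in the labels, whose meaning is not stated, were used here as SN930 or other. A first set, of code SN930, held triple samples 4, 5 and 6 with double sample 1. A second set, with all other codes pooled, held triple samples 1, 2 and 3 with double sample 2. Within the first set 11 mitochondrial genes were lower, beside 6.97% of all genes, and within the second 0 were, beside 0.00552% of all genes. Each set holds a single double sample, so code and sample cannot be told apart there. The filter of the first set let in 21 mitochondrial genes, among them mt-Tt and mt-Tp, counted mainly in double sample 1. Both were among its calls. The second set tested 18 and the main fit 17, so these counts of calls cannot be compared directly. The median log2 fold change of the mitochondrial genes tested was -2.06 in the first set and -0.17 in the second. Other choices gave 8 mitochondrial genes lower with DESeq2 (10.7% of all genes), 3 with upper-quartile scaling (4.51%), 2 with library size only (3.07%), 2 with limma-voom (3.76%) and 2 with the code as a term (3.35%). With the code as a term the rRNA genes passed, and the calls of mt-Nd6 (adjusted p = 0.0687 by edgeR) and mt-Co3 (adjusted p = 0.0684) were lost at log2 fold changes of -1.49 and -1.51.

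The rRNA genes encode the RNA scaffolds of the mitochondrial ribosome. mt-Rnr1 (ENSMUSG00000064337, chrM:70-1024) had 382, 570, 421, 267, 249 and 318 CPM in triple samples 1 to 6, against 1209 and 1054 CPM in double samples 1 and 2. The double samples lay close together and well above every triple sample. mt-Rnr1 was 3.08-fold lower in the triple samples (log2 fold change -1.62 ± 0.30 SE, adjusted p = 0.0186 by edgeR). It was the mitochondrial gene whose estimate moved least when double sample 1 was left out, at -1.52 (adjusted p = 0.119), and among samples with other codes than SN930 it was -1.21 (adjusted p = 0.263).

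mt-Rnr2 (ENSMUSG00000064339, chrM:1094-2675) had 766, 1214, 1045, 1252, 515 and 938 CPM in triple samples 1 to 6, against 5177 and 2303 CPM in double samples 1 and 2. The groups did not overlap, and double sample 1 was the higher of its pair. Its log2 fold change was -1.97 ± 0.37 (SE, adjusted p = 0.0201 by edgeR), and -1.27 without double sample 1 (adjusted p = 0.202). The ratio of mt-Rnr2 to mt-Rnr1 counts was 2.01, 2.13, 2.48, 4.69, 2.07 and 2.95 in triple samples 1 to 6 and 4.28 and 2.18 in double samples 1 and 2. Triple sample 4 and double sample 1 were high in this ratio, and the groups overlapped.

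Among the complex I subunits, mt-Nd6 (ENSMUSG00000064368, chrM:13552-14070) is the only protein gene on the minus strand. It had 12.8, 23.1, 15.6, 16.4, 12.3 and 22.3 CPM in triple samples 1 to 6, against 75.4 and 26.9 CPM in double samples 1 and 2. Double sample 2 lay just above the highest triple sample. The log2 fold change was -1.58 ± 0.37 (SE, adjusted p = 0.0383 by edgeR), and -0.65 without double sample 1 (adjusted p = 0.508). mt-Nd6 counts were 1.07 to 1.77% of those of mt-Nd5, its overlapping neighbour on the plus strand, in the triple samples and 1.59 and 1.44% in the double samples. The use of strand in counting is not given in the sources used here, so reads of mt-Nd6 and of plus-strand RNA that runs through the same bases cannot be told apart.

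The other complex I genes did not pass the test. mt-Nd1, which helps to form the quinone-binding site, had 1680, 3343, 2599, 2469, 2006 and 2538 CPM in triple samples 1 to 6, against 7509 and 2808 CPM in double samples 1 and 2 (log2 fold change -1.08 ± 0.37, adjusted p = 0.106 by edgeR). Double sample 2 lay among the triple samples, as it did for the next 3 genes. The proton-pumping subunit mt-Nd5 had 1199, 2053, 1446, 1013, 896 and 1259 CPM in triple samples 1 to 6, against 4739 and 1864 CPM in double samples 1 and 2 (-1.33 ± 0.39, adjusted p = 0.0680).

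Another pumping subunit, mt-Nd4, had 804, 1720, 1162, 708, 913 and 1060 CPM in triple samples 1 to 6, against 3105 and 1050 CPM in double samples 1 and 2 (-0.97 ± 0.43, adjusted p = 0.181 by edgeR). For mt-Nd2, also a pumping subunit, the values were 884, 1977, 1230, 785, 869 and 954 CPM in triple samples 1 to 6, against 2922 and 1060 CPM in double samples 1 and 2 (-0.83 ± 0.44, adjusted p = 0.249). Both genes lost the sign of their difference without double sample 1, at 0.013 for mt-Nd4 and 0.075 for mt-Nd2. The nearly fully shared genes mt-Nd3 and mt-Nd4l had 0.0950 to 1.03 CPM and 0.0663 to 0.449 CPM in the triple samples. In the double samples mt-Nd3 had 0.971 and 0.577 CPM and mt-Nd4l had 0.688 and 0.325 CPM. Their log2 fold changes were -0.72 ± 0.73 and -1.05 ± 0.63 (adjusted p = 0.541 and 0.307 by edgeR).

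In complex III, mt-Cytb had 2517, 4755, 3384, 2253, 2355 and 2828 CPM in triple samples 1 to 6, against 10249 and 3618 CPM in double samples 1 and 2. Only double sample 1 lay above the triple samples. The log2 fold change was -1.20 ± 0.41 (adjusted p = 0.104 by edgeR), and -0.26 without double sample 1.

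In complex IV, mt-Co3 (ENSMUSG00000064358, chrM:8607-9390) had 3.78, 6.42, 6.54, 4.51, 3.48 and 5.998 CPM in triple samples 1 to 6, against 19.8 and 9.60 CPM in double samples 1 and 2. The groups did not overlap, and the log2 fold change was -1.52 ± 0.36 (SE, adjusted p = 0.0397 by edgeR). Its counts are few beside those of the identical copy Gm28437: with the counts of the copy added, an alternative chosen after seeing the data, the log2 fold change was -0.81 (adjusted p = 0.163). Without double sample 1 it was -0.91 (adjusted p = 0.391).

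mt-Co1 had 3675, 6114, 4784, 4196, 3319 and 5008 CPM in triple samples 1 to 6, against 17357 and 5616 CPM in double samples 1 and 2. Double sample 1 was far above the rest and double sample 2 lay inside the range of the triple samples (log2 fold change -1.35 ± 0.40, adjusted p = 0.0711 by edgeR), and the estimate was -0.32 without double sample 1. The shared gene mt-Co2 had 4.98 to 13.5 CPM in the triple samples, against 19.1 and 12.4 CPM in the double samples (-1.08 ± 0.39, adjusted p = 0.119).

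In ATP synthase, mt-Atp6 had 2.79 to 5.92 CPM in the triple samples, against 11.002 and 5.05 CPM in the double samples (-1.07 ± 0.39, adjusted p = 0.121 by edgeR). mt-Atp8 had 0.0633 to 0.411 CPM in the triple samples, against 0.688 and 0.325 CPM in the double samples (-1.44 ± 0.72, adjusted p = 0.226). Both overlapped between the groups.

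Of the 7 pseudogenes of the chromosome 1 block none passed the test, all had a negative log2 fold change, and their median was -1.02, against -0.18 without double sample 1. Together they took 0.0833 to 0.167% of counts in the triple samples and 0.248 and 0.133% in the double samples.

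**Figure D4:**
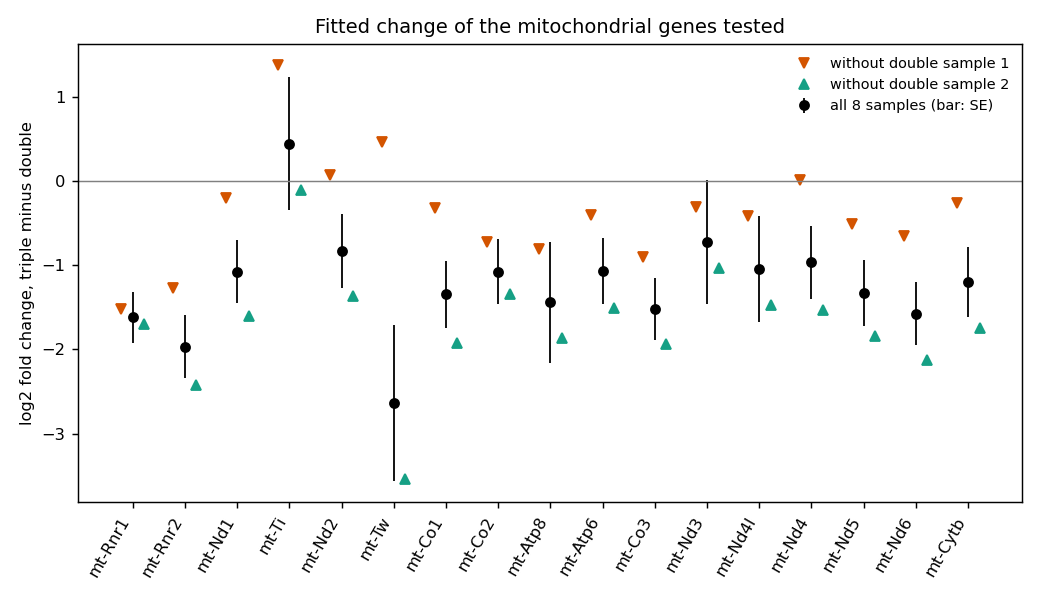
Fitted log2 fold change (triple minus double) of the 17 mitochondrial genes tested, in genome order, with all 8 samples (circles, bars show the SE), without double sample 1 (downward triangles) and without double sample 2 (upward triangles). Estimates without double sample 1 lie above those with all samples for every gene shown, by least for mt-Rnr1, at -1.52 without that sample and -1.62 with all samples.

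The tRNA genes were almost uncounted. They had 710 counts in total over the 8 samples, of which mt-Tw (tryptophan) had 223, mt-Ti (isoleucine) 191, mt-Tp (proline) 86, mt-Tt (threonine) 57, mt-Tm (methionine) 46, mt-Td (aspartate) 42 and mt-Tq (glutamine) 27. A further 6 had 2 to 12 counts: mt-Tl1, mt-Te, mt-Ta, mt-Ts1, mt-Tc and mt-Ty. The remaining 9 (mt-Tf, mt-Tv, mt-Tn, mt-Tk, mt-Tg, mt-Tr, mt-Th, mt-Ts2 and mt-Tl2) had 0 of 236738488 counts, which allows up to 0.0127 CPM. Mature tRNAs are short and untailed, so these counts are no measure of tRNA levels.

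Some tRNA genes share bases with a protein gene, among them mt-Tw and mt-Ti, the tRNA genes with most counts, and mt-Ts1, which shares 3 bases with mt-Co1 and had 4 counts. mt-Ti begins inside the end of mt-Nd1, by 2 bases, and ends inside mt-Tq, by 3 bases, while mt-Tw begins inside the end of mt-Nd2, by 2 bases. Both are shown as GENCODE M21 transcripts, with capitals for the bases that lie in a neighbouring gene as well, at chrM:3706-3774 for mt-Ti and chrM:4950-5016 for mt-Tw, plus strand:
mt-Ti: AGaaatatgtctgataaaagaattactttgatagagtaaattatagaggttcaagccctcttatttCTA
mt-Tw: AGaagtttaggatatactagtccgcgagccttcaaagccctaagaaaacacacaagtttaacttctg

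mt-Tw had counts of 1, 24, 16, 13, 12 and 17 in triple samples 1 to 6, against 131 and 9 in double samples 1 and 2. Its log2 fold change was -2.64 ± 0.92 (adjusted p = 0.109 by edgeR), and 0.46 without double sample 1. mt-Ti had counts of 14, 58, 30, 6, 33 and 18 in triple samples 1 to 6, against 23 and 9 in double samples 1 and 2 (0.44 ± 0.79, adjusted p = 0.744). For mt-Tw the high value was double sample 1 and for mt-Ti it was triple sample 2.

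The neighbouring genes mt-Tt and mt-Tp, below the filter on low counts, had 49 and 67 of their counts in double sample 1. In double sample 2 they had 2 and 6 counts, and in the triple samples 0 to 3 and 0 to 4. Without that filter both were called lower in the triple samples, beside 3.17% of all genes, and mt-Co3 was not.

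Within the mitochondrial total, the rRNA genes took a smaller part in the triple samples. Their share was 9.62, 8.18, 9.10, 11.7, 6.85 and 8.40% of mitochondrial counts in triple samples 1 to 6, against 12.2 and 17.3% in double samples 1 and 2. The groups did not overlap, although triple sample 4 came close to double sample 1. The mean was 8.98 ± 1.64% (SD, n = 6) in the triple samples and 14.7 ± 3.605% (SD, n = 2) in the double samples. No test was made of this sum over members. Here, unlike in the share of all counts, the higher of the double samples was sample 2.

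Nuclear RNAs without a poly(A) tail were also highest in double sample 2. A list of 20 such genes summed to 10.9 to 42.1 CPM in the triple samples, against 16.8 and 131 CPM in double samples 1 and 2. Sums over a list are given per total counts, without TMM factors. Rn7sk, a regulator of transcription elongation, had 18.6, 18.9, 3.43, 2.98, 3.48 and 3.57 CPM in triple samples 1 to 6, against 4.49 and 55.7 CPM in double samples 1 and 2. Of the 20 genes 11 were tested and 0 were called. The part of this difference in the rRNA share was not tested.

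Of the 6 abundant protein genes, 5 had shares of the protein-gene total that overlapped between the groups, and mt-Nd2, given after these, did not. mt-Co1 held 33.7 ± 2.49% (SD, n = 6) of mitochondrial protein-gene counts in the triple samples and 36.3% in the double samples. mt-Cytb held 22.2 ± 1.65% in the triple samples and 22.4% in the double samples, and mt-Nd1 held 18.2 ± 2.09% and 16.9% in the same order. mt-Nd5 held 8.63 to 11.1% in the triple samples and 10.3 and 11.6% in double samples 1 and 2, and mt-Nd4 held 6.18 to 8.80% in the triple samples and 6.75 and 6.53% in double samples 1 and 2. Among the triple samples mt-Nd1 ran from 15.6 to 21.6%.

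Of the 13 shares compared, the one with the smallest p was that of mt-Nd6, at 0.107 to 0.163% in the triple samples, against 0.164 and 0.167% in the double samples (exact permutation test, 2-sided, p = 0.0357, not adjusted for 13 comparisons). That is the smallest p that the 28 ways to split these samples can give. The gap between the groups was narrow, and p was 0.143 without triple sample 1, 2, 3 or 5. mt-Nd2 held 6.85 to 9.88% in the triple samples, against 6.35 and 6.59% in the double samples, with no overlap (exact permutation p = 0.143). For the other 11 genes the groups overlapped.

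**Figure D5:**
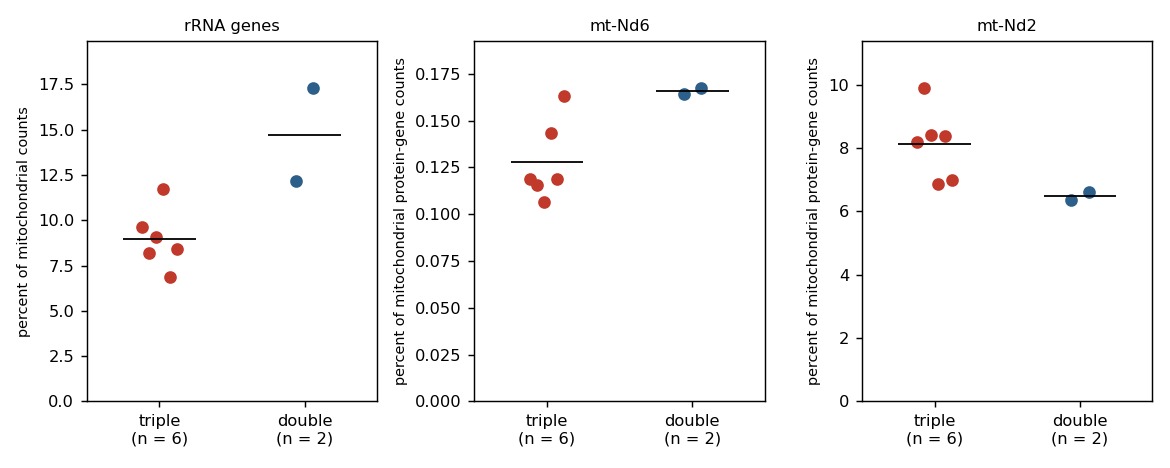
Percent of mitochondrial counts on the rRNA genes (left), and percent of mitochondrial protein-gene counts on mt-Nd6 (middle) and mt-Nd2 (right), with triple knockout samples (n = 6) left of double knockout samples (n = 2) in each panel and lines at the group means. The rRNA share lies at 6.85 to 11.7% in the triple samples and at 12.2 and 17.3% in the double samples.

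Mitochondrial DNA is copied, transcribed and translated by nuclear-encoded proteins, and the respiratory complexes join its products to nuclear subunits. In 11 lists of such genes, 246 of 247 members were tested, 0 rose and 13 fell in the triple samples. That is 5.28% called lower, against 5.41% of all genes tested, so the lists as a whole had calls at the background rate in this fit. Each list had 0 to 2 of these calls, too few to weigh against that rate list by list. Other fits moved the lists away from that rate in both directions. Without double sample 2, 105 fell and 9 rose, which is 42.7% lower, against 15.8% of all genes. Within code SN930 54 fell and 3 rose (22% lower, against 6.97% of all genes), and with DESeq2 55 fell and 3 rose (22.4% lower, against 10.7%). Without double sample 1 a single member, Twnk, was called, which is 0.407%, against 1.14% of all genes, and with the code as a term 3 fell (1.22%, against 3.35%). Without any 1 of the triple samples 1 to 3 fell.

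In replication and maintenance of mitochondrial DNA 2 of 17 genes fell. Twnk, the replicative helicase, had 18.5 to 24.1 CPM in the triple samples, against 31.7 and 43.7 CPM in the double samples, with a fitted log2 difference of -0.82 ± 0.19 (adjusted p = 0.0378 by edgeR), and -1.05 without double sample 1 (adjusted p = 0.0478). Slc25a33, a mitochondrial carrier of pyrimidine nucleotides, had 3.53 to 6.20 CPM in the triple samples, against 48.7 and 6.71 CPM in the double samples, and its log2 fold change of -2.44 ± 0.54 rested on double sample 1 (adjusted p = 0.0319, and 0.714 without that sample). The median of the list was 0.04.

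In transcription 2 of 10 genes fell. Tfb2m, the factor that opens mitochondrial promoters, had 9.62 to 14.3 CPM in the triple samples, against 34.0 and 18.6 CPM in the double samples (-1.07 ± 0.27, adjusted p = 0.0439 by edgeR). Mterf2, a member of the mitochondrial transcription termination factor family, had 1.06 to 3.07 CPM in the triple samples, against 5.66 and 6.31 CPM in the double samples (-1.61 ± 0.40, adjusted p = 0.0439). The groups did not overlap for either gene, where 11.4% of all genes tested were apart in that direction. Without double sample 1 the estimates were -0.57 and -1.69. The polymerase gene Polrmt had 19.0 to 24.9 CPM in the triple samples, against 37.3 and 29.2 CPM in the double samples (-0.56 ± 0.18, adjusted p = 0.0928). Tfam, which packs the DNA and binds its promoters, had 32.3 to 39.9 CPM in the triple samples, against 59.2 and 46.3 CPM in the double samples (-0.49 ± 0.16, adjusted p = 0.0968). Polrmt, Tfam and Ppargc1a were chosen after their values were seen.

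In RNA processing, stability and decay 2 of 22 genes fell. Elac2, the nuclease that trims the trailing ends of tRNA precursors, had 25.2 to 32.7 CPM in the triple samples, against 75.1 and 45.1 CPM in the double samples (-1.04 ± 0.21, adjusted p = 0.0229 by edgeR). Fastkd1, of a family of mitochondrial RNA-binding proteins, had 7.49 to 12.99 CPM in the triple samples, against 20.4 and 20.8 CPM in the double samples (-0.96 ± 0.25, adjusted p = 0.0475). For Fastkd1 the double samples agreed closely, and the estimate was -0.98 without double sample 1, while that of Elac2 was -0.63.

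Of 17 genes that modify mitochondrial tRNA and rRNA 0 were called. The members with the smallest p were the tRNA-modifying enzymes Cdk5rap1 (-0.69 ± 0.24, adjusted p = 0.110 by edgeR) and Trit1 (-0.52 ± 0.18, adjusted p = 0.112). Of 12 nuclear regulators of mitochondrial biogenesis 0 were called. The nuclear receptor gene Esrrg had 0.133 to 3.99 CPM in the triple samples, against 42.3 and 0.902 CPM in the double samples. Esrrb, a related receptor gene, had 0 to 0.918 CPM in the triple samples, against 8.53 and 0.505 CPM in the double samples. The coactivator gene Ppargc1a had 0.332 to 6.33 CPM in the triple samples, against 29.2 and 1.12 CPM in the double samples. For these 3 genes double sample 2 lay within the range of the triple samples.

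Nuclear subunits of each respiratory complex had a median log2 fold change below 0 that lay near 0 without double sample 1, few of them called. In complex I 2 of 36 genes fell, all 36 had a negative log2 fold change, and the median was -0.81, against -0.03 without double sample 1. Ndufv1, which carries the NADH-binding site, had 69.4 to 118 CPM in the triple samples, against 366 and 140 CPM in the double samples (-1.38 ± 0.32, adjusted p = 0.0347 by edgeR). Ndufb7, an accessory subunit, had 36.1 to 54.9 CPM in the triple samples, against 148 and 61.7 CPM in the double samples (-1.11 ± 0.29, adjusted p = 0.0492). Without double sample 1 the estimates were -0.53 for Ndufv1 and -0.36 for Ndufb7.

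In complex II 0 of 4 genes were called, with the membrane anchors Sdhc at -0.70 ± 0.27 and Sdhd at -0.70 ± 0.23 (adjusted p = 0.133 and 0.0987 by edgeR). In complex III 0 of 9 genes were called, with a median of -1.02. Cyc1 (cytochrome c1) was at -1.14 ± 0.30 and Uqcrfs1 (the Rieske protein) at -1.48 ± 0.42 (adjusted p = 0.0542 and 0.0648).

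In complex IV 2 of 16 genes fell. Cox4i1, a regulatory subunit, had 210 to 348 CPM in the triple samples, against 960 and 411 CPM in the double samples (-1.20 ± 0.30, adjusted p = 0.0457 by edgeR, and -0.47 without double sample 1). Cox8a, a small subunit, had 83.7 to 121 CPM in the triple samples, against 157 and 192 CPM in the double samples (-0.80 ± 0.19, adjusted p = 0.0357). Of these called genes of the complexes, Cox8a was the one for which double sample 2 was the higher, and its estimate was -0.95 without double sample 1 (adjusted p = 0.0913).

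In ATP synthase 1 of 15 genes fell, Atp5b, the catalytic beta subunit, with 840 to 1090 CPM in the triple samples, against 3807 and 1182 CPM in the double samples (-1.41 ± 0.35, adjusted p = 0.0447 by edgeR). Without double sample 1 its estimate was -0.34. Of 88 tested genes of the mitochondrial ribosome and its factors 2 fell, Mrps31 of the small subunit (-1.20 ± 0.23, adjusted p = 0.0201) and Mrpl16 of the large subunit (-0.70 ± 0.18, adjusted p = 0.0451), with a list median of -0.28. Without double sample 1 they were at -0.80 and -0.60.

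The nuclear subunits together took 0.669 to 0.996% of counts in the triple samples, against 1.71 and 0.924% in double samples 1 and 2. The counts on mitochondrial protein genes were 1.37 to 2.15 times those on the nuclear subunits in the triple samples and 2.07 and 1.80 times in the double samples. Both double samples lay inside the range of the triple samples in this ratio.

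Markers of tissues rich in mitochondria were highest in double sample 1. All 20 adult skeletal muscle genes of a list were counted in every sample, none at 0, and together they took 0.0943, 1.89, 0.264, 0.0172, 0.619 and 0.805% of counts in triple samples 1 to 6, against 6.46 and 0.380% in double samples 1 and 2. Of these genes 0 were called, and their median log2 fold change was -2.62, against 1.14 without double sample 1. Triple sample 2, the highest triple sample in mitochondrial counts at 2.33%, was also the highest triple sample for muscle genes. The other triple samples did not keep a common order. Triple sample 5 was lowest in mitochondrial counts at 1.16%, with 0.619% on muscle genes. Triple sample 3 had 1.77% on mitochondrial genes, with 0.264% on muscle genes. Cox6a2, the muscle isoform of a complex IV subunit, had 1.06 to 60.6 CPM in the triple samples, against 259 and 7.83 CPM in the double samples (chosen after its values were seen).

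A list of 10 heart muscle genes summed to 8.37 to 88.0 CPM in the triple samples, against 2076 and 505 CPM in the double samples. Of 8 tested, 2 were called lower, Tnnt2 and Myoz2, which are also expressed in developing or slow skeletal muscle. Nppa stood at 0 in both double samples. The median log2 fold change was -1.87, against 0.98 without double sample 1. A list of 8 brown fat genes summed to 29.8 to 162 CPM in the triple samples, against 673 and 81.5 CPM in the double samples. In it 1 was called lower, Elovl3, and the median log2 fold change was -3.47, against 2.83 without double sample 1. The defining gene of brown fat, Ucp1, had 0 to 9.40 CPM in the triple samples, against 288 and 0.180 CPM in the double samples. Fibroblast markers stood, in sum, the other way. A list of 8 took 1.13 to 3.52% of counts in the triple samples, against 0.685 and 1.01% in the double samples, with no overlap, and 2 were called higher, Pdgfra and Cd34. Of the 8 fibroblast markers 2 had a negative log2 fold change. The median of the list was 1.24, and 1.21 without double sample 1. Of 12 leukocyte markers, all counted in every sample, 2 were called higher, the myeloid genes Cd68 and Itgam, and the list took 0.160 to 0.270% of counts in the triple samples, against 0.0587 and 0.175% in the double samples. Of the 12 leukocyte markers 2 had a negative log2 fold change. The median of the list was 0.82, and 0.19 without double sample 1. Of 8 endothelial markers, also counted in every sample, 1 was called lower, Tek, and 4 had a negative log2 fold change. The list took 0.0199 to 0.0446% of counts in the triple samples, against 0.0303 and 0.0293% in the double samples. Over all genes tested 5.41% were called lower and 2.94% higher. In lists this short, 1 or 2 calls cannot be weighed against these shares. The labels speak of cultured cells, and every listed gene of adult skeletal muscle, fibroblasts, leukocytes and endothelium was counted in all 8 samples. Of the heart muscle list 7 of 10 genes were counted in all 8 samples, and of the brown fat list 2 of 8. The part of these cell types in the levels of the mitochondrial genes was not tested. In bulk samples, fewer cells of a type and less RNA per cell cannot be told apart.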

How the data were processed

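The deposited files hold raw read counts, in 1 table of 52636 genes for each of 8 samples. HTSeq, DESeq2, mm10 and GRCm38 are named in the submitters' processing notes, without their roles. Not given in the sources used here are the aligner, the annotation release, the strand setting and the treatment of reads that match several places. Coordinates were moved to count from 1 and match GENCODE M21. After filterByExpr and TMM scaling, triple minus double was tested by quasi-likelihood F-tests in edgeR 4.0.16 under R 4.3.3, with p adjusted by Benjamini-Hochberg over all 17709 genes. Levels are CPM with TMM factors, and shares and list sums use total counts without these factors. Standard errors come from the test statistic. Shared sequence was counted as exact windows of 50 bases, in transcripts on either strand. The scripts were tested on simulated data. Wilson intervals and the floor of 3 counts cover counting error only.

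Replicate numbers follow accession order and pair nothing. Genes named are all those of chromosome MT, and from each nuclear list the called members with the lowest p, at most 4, or 2 members where none was called. The members and lists were chosen with earlier results of these data known. The copy list fixed at first held 6 pseudogenes, and all 7 in the block were used. Alternatives were other scalings, filters and tools (DESeq2 1.42.0, limma 3.58.1 voom), the description code, and leaving out each sample.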

Additional observations from a re-analysis of the deposited data

Results flagged for a closer look

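In 33 series of 6 triple samples, 2 had a sample far from the others by Dixon's test, which chance gives in about 1 of 20. Triple sample 2 stood at 1977 CPM of mt-Nd2, where the other triple samples lay at 785 to 1230 CPM. The same sample stood at 13.5 CPM of mt-Co2, where the others lay at 4.98 to 7.43 CPM. Triple sample 2 also had the highest mitochondrial share and the highest adult skeletal muscle share among the triple samples. The other triple samples did not keep a common order in these shares. The part of the muscle genes in the flagged values was not tested.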

How the results depend on the processing

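No paired analysis was possible because the replicate numbers were given in accession order. No mitochondrial gene was called higher under any alternative run. The number of mitochondrial genes tested differed between runs. It was 17 in the main fit, 21 within code SN930, 18 within the other codes and 22 without double sample 2. The 4 called lower became 2 with library size only, 2 with limma-voom, 2 with the code as a term, 8 with DESeq2, 11 within code SN930, 0 within the other codes, and 0 to 14 with a sample left out. The 13 nuclear list genes became 4 with upper-quartile scaling, 3 with library size only, 58 with DESeq2, 6 with limma-voom, 5 with no filter, 3 with the code as a term, 57 within SN930, 0 within the other codes, and 1 to 114 with a sample left out. With DESeq2 55 of these nuclear genes fell and 3 rose, while all 13 of the main fit fell. Within SN930 and without double sample 2 some also rose. The percent called lower was below that of all genes with upper-quartile scaling (1.63, against 4.51) and library size only (1.22, against 3.07). So it was with limma-voom (2.44, against 3.76) and no filter (2.02, against 3.17). It was above with DESeq2 (22.4, against 10.7) and RLE scaling (6.1, against 5.77). The difference in mitochondrial share, -1.48 percentage points, was -2.72 within SN930, -0.235 within the other codes and -2.49 to -0.459 with a sample left out. That in rRNA share, -5.76 points, was -3.20, -8.31 and -8.31 to -3.21 in the same fits. That in tRNA share, -0.00367 points, was -0.0126, 0.00529 and -0.0137 to 0.00638. The 1 protein gene share at the smallest p became 2 with copies added and 0 to 3 with a triple sample left out. With a double sample left out or within a code set no p could pass.

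Signs turned as follows. On the log2 scale, within the other codes mt-Nd2 was 0.36, mt-Tw 0.42, mt-Nd4 0.22, Esrrb 0.19 and Esrrg 0.70, and within SN930 mt-Ti was -0.57. With a sample left out mt-Nd2 ranged from -1.37 to 0.075, mt-Tw from -3.54 to 0.46, mt-Nd4 from -1.53 to 0.013, Esrrg from -5.46 to 0.26 and mt-Ti from -0.11 to 1.38. Differences in protein-gene shares (percentage points) within the other codes were -0.791 for mt-Nd1, -0.00218 for mt-Atp6, -7.75e-06 for mt-Nd3, 9.4e-05 for mt-Nd4l and 0.888 for mt-Cytb, and within SN930 0.0134 for mt-Co2. With a sample left out they ranged over -0.0228 to 0.0127 for mt-Co2, -0.00316 to 0.00435 for mt-Atp6, -0.000186 to 0.0013 for mt-Nd3, -0.000268 to 0.000258 for mt-Nd4l and -0.503 to 0.315 for mt-Cytb. With copies added they were 0.118 for mt-Co2, 0.409 for mt-Co3 and 0.0161 for mt-Nd4l. The cause was not tested. With 2 double samples, 1 of which stands apart, and few counts on genes that have a near-complete copy, the data limit all these estimates.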
